A study of Mus musculus with 188 samples.

Results

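Chromosome 19 is the shortest mouse autosome, 61.4 Mb in the reference against 90.7 to 195 Mb for the other 18. Its members here were all 50 kb bins assigned to chromosome 19 that carried a binarized replication state, 1144 of 46743 autosomal bins (2.45%) and of 49588 bins with the X chromosome included. They lie in chr19:3000001-61350000 (mm10), and 85 further bins of the chromosome had no state. Of the 1144 members, 1110 also had a smoothed score in enough cells to be given a scheduled time, and these were used together with 44002 bins of the other autosomes.

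The cells were single mouse embryonic stem cells (mESCs) of 2 lines, whose genomes were amplified and sequenced at low coverage. H129-2 is a haploid line of the 129 strain, described by 75 S-phase cells. F121-9 is a diploid hybrid line with 1 chromosome set from Castaneus (cas) and 1 from 129, described by 63 S-phase cells whose 129 and Castaneus homologs have separate states. Both lines were grown in N2B27 medium with 2i and LIF, which keep mESCs undifferentiated, and were sorted by DNA content after DAPI staining before SeqPlex whole-genome amplification, the haploid cells with gates extended to early and late S phase. The labels name no culture, so each line is 1 sample of many cells, SDs are over cells and no test between lines was made. Ploidy, strain and sorting gate differ together between the lines and cannot be told apart.

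DNA replication proceeds through S phase in a fixed broad order. Early replicating domains are in general rich in genes and GC and lie in open chromatin of the nuclear interior. Late domains tend to lie at the nuclear periphery or the nucleolus. A domain is copied by a cluster of origins that fire at about the same time, and the border between an early and a late domain is seen in a single S-phase cell as a shift between 2 copy number levels.

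A state of 1 stands for a replicated and 0 for an unreplicated bin. The progress of a cell is the percentage of its bins replicated, with both homologs of a diploid cell averaged. The scheduled time of a bin is its rank in the smoothed profile averaged over all cells, from early to late, placed on an S phase of 10 h. For the expected shares and T_width described below, the cell itself was left out of the average. Chromosome 19 was early by this schedule. Its bins had a mean scheduled time of 4.46 h, the second earliest of the 19 autosomes after chromosome 11 at 4.27 h, and the other chromosomes reached up to 5.59 h. In all, 57.9% of its bins were scheduled within 5 h, against 38.7% to 64.8% on the other autosomes.

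Base composition and gene content, which played no part in choosing the bins, ranked alike. The bins of chromosome 19 held 42.9% GC on average, rank 3 of 19 (40.5% to 43.8% on the others). They held 12.6 starts of protein-coding genes per Mb, also rank 3 (5.64 to 14.4). Across the 18 other autosomes, mean scheduled time and GC correlated at r = -0.95 (rho = -0.94), a description of 18 points that share all cells. Within chromosome 19, scheduled time and GC correlated at r = -0.71 over bins, nearer 0 than on all but 1 of the other autosomes (-0.86 to -0.70).

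The promoters below belong to genes that mark 4 parts of the chromosome described in the following paragraphs. Ldb1, a LIM-domain binding cofactor of transcription, starts in the earliest domain. Sorcs3 and Sorcs1, neuronal sorting receptors, start in the latest. Tcf7l2, a transcription factor of the Wnt pathway, and Kif20b, a mitotic kinesin, start where the lines differed most. Each sequence is the 250 bases upstream of the most upstream start in the RefSeq table (GRCm38.p6, the assembly behind mm10), 5′ to 3′ on the strand of the gene, with each CG dinucleotide in capitals.
Ldb1 (chr19:46045312-46045561, - strand): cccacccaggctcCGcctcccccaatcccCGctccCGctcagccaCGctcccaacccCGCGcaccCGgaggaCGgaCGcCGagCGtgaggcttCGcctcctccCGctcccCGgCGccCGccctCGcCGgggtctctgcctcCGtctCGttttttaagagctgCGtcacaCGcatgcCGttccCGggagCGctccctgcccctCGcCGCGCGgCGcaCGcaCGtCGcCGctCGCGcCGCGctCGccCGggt
Sorcs3 (chr19:48205775-48206024, + strand): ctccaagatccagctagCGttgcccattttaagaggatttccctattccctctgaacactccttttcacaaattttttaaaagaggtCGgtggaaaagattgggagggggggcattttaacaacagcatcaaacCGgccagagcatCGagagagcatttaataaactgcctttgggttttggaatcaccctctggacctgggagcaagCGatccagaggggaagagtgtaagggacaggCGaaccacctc
Sorcs1 (chr19:50678647-50678896, - strand): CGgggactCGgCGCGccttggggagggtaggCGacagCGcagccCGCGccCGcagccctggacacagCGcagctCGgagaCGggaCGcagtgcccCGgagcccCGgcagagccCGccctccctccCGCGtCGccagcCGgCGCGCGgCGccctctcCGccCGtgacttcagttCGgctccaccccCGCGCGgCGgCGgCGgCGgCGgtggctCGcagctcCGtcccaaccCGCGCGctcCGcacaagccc
Tcf7l2 (chr19:55741560-55741809, + strand): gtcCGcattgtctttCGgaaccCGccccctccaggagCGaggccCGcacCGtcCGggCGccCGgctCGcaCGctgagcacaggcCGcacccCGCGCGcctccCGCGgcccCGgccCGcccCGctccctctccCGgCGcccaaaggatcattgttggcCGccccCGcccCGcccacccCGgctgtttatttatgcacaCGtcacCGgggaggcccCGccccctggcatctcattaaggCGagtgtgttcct
Kif20b (chr19:34922108-34922357, + strand): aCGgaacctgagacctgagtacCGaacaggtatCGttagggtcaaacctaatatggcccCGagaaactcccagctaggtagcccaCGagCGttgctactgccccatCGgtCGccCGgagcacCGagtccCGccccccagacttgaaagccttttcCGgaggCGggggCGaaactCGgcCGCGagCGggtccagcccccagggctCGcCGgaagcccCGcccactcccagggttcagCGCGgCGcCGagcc

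CG dinucleotides, which read the same on both strands, are the sites of DNA methylation and are dense in CpG island promoters. Ldb1 held 40 of them, and 1.31% of all 32841 promoter sequences of this length held as many or more. Sorcs1, the latest of these genes, held 41, and Sorcs3 in the same late domain held 6. Tcf7l2 held 30 and Kif20b 25. A CG-dense promoter was thus found in the latest domain as well as in the earliest. Over the chromosome, promoters in early domains held a median of 10 CG (810 promoters) and those in late domains a median of 3 (233 promoters), and 94.2% and 82% held at least 1, beside 92.1% of all promoters.

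Chromosome 19 ran ahead of the rest of the genome in almost every cell. In haploid cells 71.4% ± 16.9 of its bins were replicated (SD, n = 75), from 34.7% to 97.5% with a median of 72.7%. The other autosomes of the same cells stood at 60.9% ± 16.9. The difference within a cell was 10.5 percentage points ± 3.97, with a range of 1.59 to 23.2, and was positive in 75 of 75 haploid cells.

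In diploid cells 60.2% ± 12.1 of the chromosome was replicated (SD, n = 63), from 17.7% to 88.6% with a median of 62.9%. The other autosomes stood at 54% ± 9.50. The difference was 6.22 percentage points ± 3.81, with a range of -4.86 to 13.9, and was positive in 60 of 63 cells. The 3 cells in which chromosome 19 lagged had all replicated less of it than most diploid cells, and 1 of them was the cell E10, with 36.3% of chromosome 19 and 41.2% of the other autosomes replicated. Counting bins with a smoothed score above 0 lowered the diploid lead to 2.53 percentage points and left the haploid lead at 11.3.

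**Figure D1:**
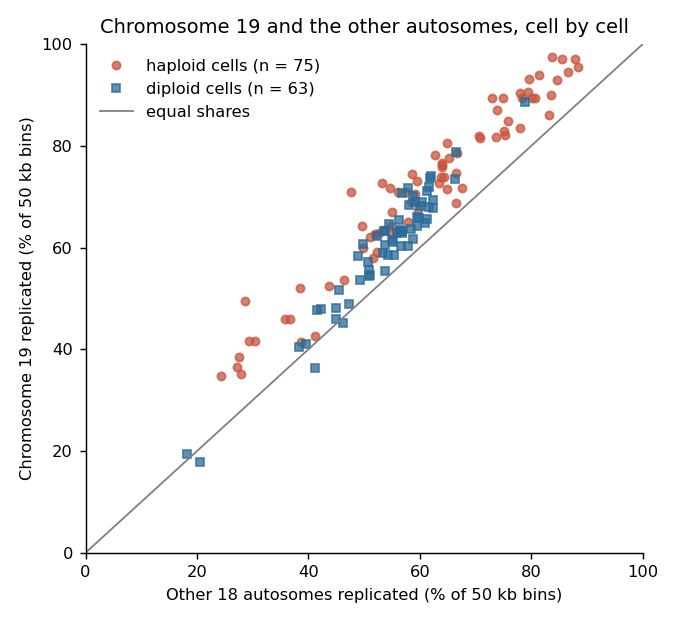
Each point is 1 S-phase cell, with the percentage of 50 kb bins replicated on the other 18 autosomes on the x axis and on chromosome 19 on the y axis, for 75 haploid and 63 diploid cells, and the grey line marks equal shares. All haploid points and 60 of the diploid points lie above the line.

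The lead was already present early in S phase in haploid cells and was smaller there in diploid cells. Haploid cells below 40% progress led by 10.7 percentage points ± 4.41 (SD, n = 11), those at 40% to 60% by 11.2 ± 4.62 (n = 25) and those above 60% by 10.04 ± 3.39 (n = 39). Diploid cells led by 0.508 ± 2.20 (n = 4), 6.07 ± 3.65 (n = 45) and 8.35 ± 2.81 (n = 14) in the same classes. At matched progress, in the 9 intervals of 5 percentage points that held cells of both lines, the haploid lead was larger by 4.59 percentage points on a weighted mean and larger in 8 of 9 intervals. The exception was the interval from 65% to 70%, where the lead was 8.76 in 7 haploid and 9.81 in 2 diploid cells.

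Only chromosome 11 led by more, with 16.3 ± 5.47 in haploid and 9.09 ± 3.01 in diploid cells. The contrast between chromosomes was wider in the haploid line in general. The mean leads and lags of the 19 autosomes in the lines correlated at r = 0.96 (rho = 0.95), and the least-squares slope through 0 of the haploid on the diploid values was 1.85. A larger haploid than diploid lead was thus also seen on chromosome 11.

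**Figure D2:**
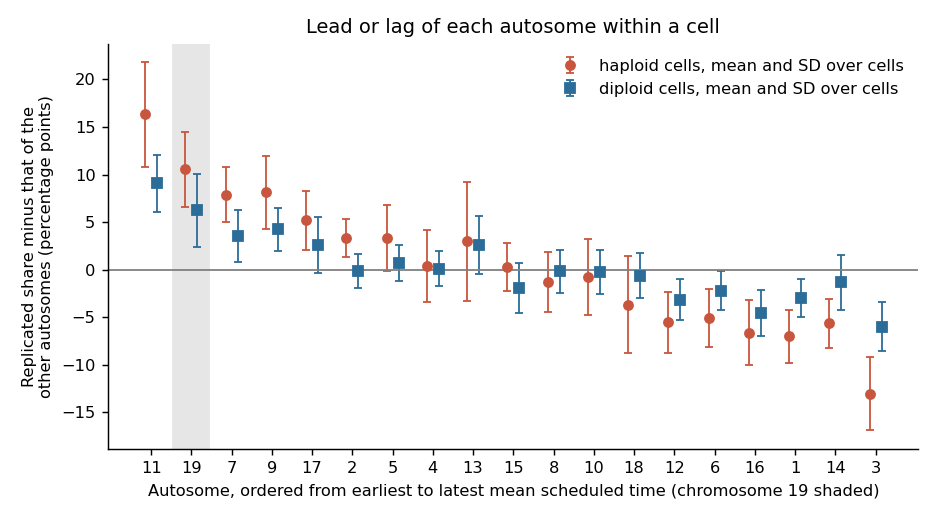
The y axis gives the replicated share of an autosome minus that of the other autosomes of the same cell, in percentage points, as mean and SD over 75 haploid (circles) and 63 diploid (squares) cells, and the x axis orders autosomes from earliest to latest mean scheduled time. Chromosome 19 (shaded) stands second in both lines, at 10.5 and 6.22.

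Because the chromosome is scheduled early, the observed share was next set against the share expected from the scheduled times of the chromosome's bins and the replication kinetics of the other autosomes. Haploid cells had replicated 3.16 percentage points ± 4.04 more than expected (SD, n = 75), with a range of -6.48 to 15.9, and 59 of 75 lay above 0. Diploid cells had replicated 1.96 percentage points less than expected, with a value of -1.96 ± 3.27 (SD, n = 63), a range of -11.4 to 5.07, and 45 of 63 below 0. The ranges of the lines overlapped. The schedule averages cells of both lines, so a difference between the lines by construction tends to place their means on opposite sides of it, as was the case for 17 of 19 autosomes. The haploid mean lay above and the diploid mean below 0 on 8 of the 18 other autosomes too, with the widest pair on chromosome 11 at 5.99 and -3.16. With the schedule taken from the other line alone the distances widened to 7.19 and -5.33.

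Single cells departed further. The haploid cell A12 had replicated 49.5% of chromosome 19 at 29.1% progress, 15.9 percentage points more than expected, and the haploid cell E4 70.8% at 48.2% progress, 15.3 more than expected. In E4 the other 18 autosomes lay between -7.46 and 7.67, and in A12 between -14.2 and 11.6. The diploid cell E10 was farthest in the other direction, at -11.4. The paper reports that chromosomes of aneuploid cells were rescaled to the read density of the G1 and G2 controls. Whether chromosome 19 was aneuploid or rescaled in these cells is unknown here and was not tested. In diploid cells the spread of 3.27 was the highest of all 19 autosomes (1.83 to 2.86 on the others). In haploid cells the spread of 4.04 was the fourth highest (2.16 to 4.55). Over the other 18 autosomes the diploid spread and the number of bins correlated at r = -0.65 (rho = -0.69) and the haploid spread at r = -0.44 (rho = -0.36). Chromosome 19 has the fewest bins, 1110 against 1692 or more, and the part of length in its spread was not tested.

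Domains were runs of bins scheduled on 1 side of 5 h, after runs under 10 bins were merged into their neighbors. Chromosome 19 had 23 of them, 12 early and 11 late, numbered D1 to D23 from the centromeric end. That is 4.14 domains per 10 Mb, against 3.30 on the other autosomes together. Single autosomes among these ranged from 2.30 on chromosome 16 to 4.63 on chromosome 7. The median domain covered 2.25 Mb of used bins, against 1.85 Mb on the other autosomes. The longest early domain covered 8.40 Mb and the longest late one 5.25 Mb. On the other autosomes the longest reached 20.2 and 25.7 Mb.

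Early domains held more genes. They averaged 43.6% GC and 17.3 protein-coding gene starts per Mb, and late domains 40.4% GC and 5.70 starts per Mb. The ranges overlapped in both measures, from 39.8% to 46.7% GC in early and from 38.4% to 43.8% in late domains. The late domain D2 held 27.1 gene starts per Mb, more than any early domain but D1, and 42 of its 46 genes were olfactory receptors. Olfactory receptors detect odorants in sensory neurons and stand in gene arrays. The late domain D4 held no start of a protein-coding gene.

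**Figure D3:**
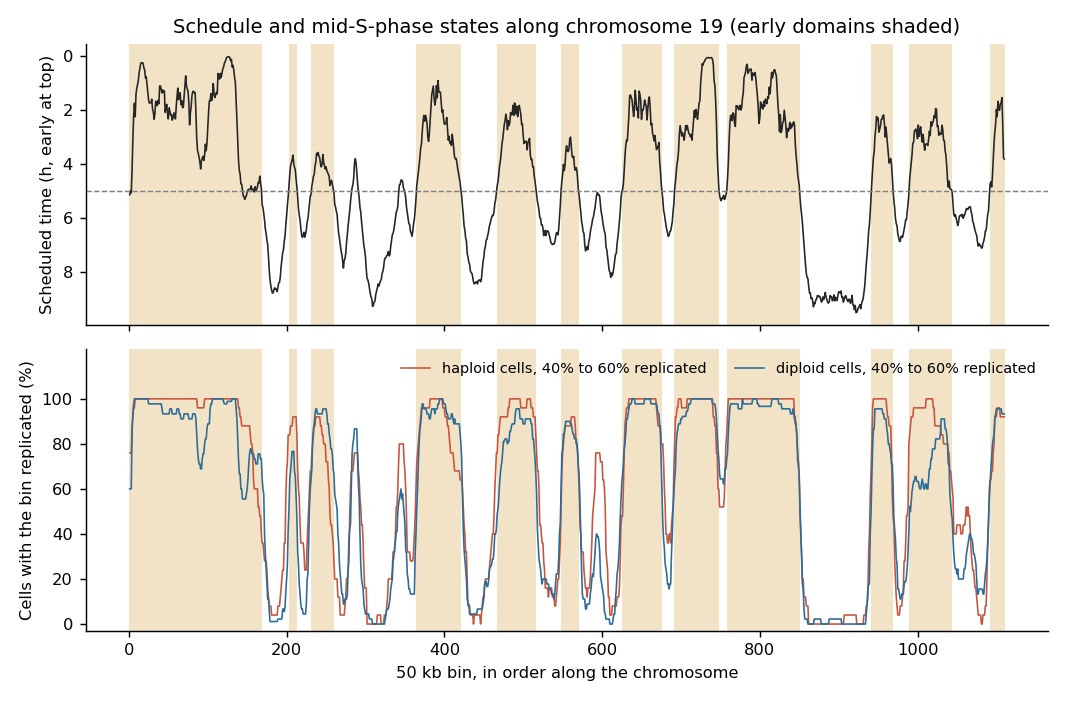
The upper panel gives the scheduled time in hours (early at the top, dashed line at 5 h) and the lower panel the percentage of mid-S-phase cells (40% to 60% progress, 25 haploid and 45 diploid) with the bin replicated, over 1110 bins of 50 kb in order along chromosome 19, with the 12 early domains shaded. The long early block D1 opens the chromosome, the late block D18 stays near 0%, and the diploid curve lies below the haploid one in the first part of D21.

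Values by domain are given for mid-S-phase cells, those with 40% to 60% of autosomal bins replicated. The other autosomes stood at 53.2% ± 4.91 in the 25 haploid and 53.3% ± 5.18 in the 45 diploid cells of this class, so the lines were alike in progress here. Domain D1, chr19:3100001-12700000, had a mean scheduled time of 2.24 h and 319 protein-coding gene starts, among them Ddb1, Fen1, Pola2, Men1 and Incenp. A median of 97.0% of it was replicated in haploid cells (79.2% to 100%) and 91.7% in diploid cells (53.6% to 100%). It was not uniform. Its bins were scheduled between 0.0127 and 5.31 h, with Slc22a transporter genes at 1.90 to 3.91 h and Ms4a and olfactory receptor genes up to 5.31 h.

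Domain D17, chr19:43450001-48100000, was the earliest by mean, at 1.90 h. It held 87 protein-coding gene starts in 4.65 Mb, with the developmental transcription factor genes Pax2, Tlx1, Lbx1 and Nkx2-3 and the cofactor gene Ldb1. Its share replicated had a median of 100% in haploid cells (92.4% to 100%) and of 98.9% in diploid cells (40.8% to 100%). All 25 haploid cells held at least 90% of it in the replicated state. Domains D15 and D13 had medians of 98.2% and 98%, the same in both lines. D13 held Hhex, a homeobox gene of endoderm, the retinoic acid hydroxylase genes Cyp26a1 and Cyp26c1, and Kif11 and Hells.

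Domain D18, chr19:48100001-52800000, next to D17, was the latest, at 8.56 h. It held 3 protein-coding gene starts in 4.70 Mb, Sorcs3, Sorcs1 and the insulin gene Ins1. A median of 4.40% was replicated in haploid cells (0% to 23.1%) and of 3.30% in diploid cells (0% to 25.3%). The highest mid-S-phase value of D18 in either line lay below the lowest value of D17 in that line. In all S-phase cells D18 was replicated to 15.4% in the haploid and 6.33% in the diploid line, which held few cells late in S phase.

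Domains scheduled near the middle varied most between cells. D16, chr19:42950001-43450000, is a late gap of 10 bins at 5.22 h between the early domains D15 and D17 and is mostly covered by Hpse2, a heparanase-related gene. It was fully replicated in 13 and fully unreplicated in 4 of 25 haploid cells, and in 28 and 10 of 45 diploid cells. D3, which holds Tle4, a Groucho-type corepressor, was fully replicated in 20 of 25 haploid cells and 15 of 45 diploid cells and fully unreplicated in 2 and 10. D11 ranged from 0% to 100% in both lines. The longest late domain, D6, with Trpm3, Pcsk5 and Rorb, was mixed in most cells. It includes short early runs merged into it, with bins scheduled from 3.80 to 9.28 h, so a mixed state is in part built in. It held at least 90% of 1 state in 3 of 25 haploid and 5 of 45 diploid cells, whereas D18 did in 20 of 25 and 40 of 45. On average 59.7% ± 6.93 of the 23 domains of a haploid cell and 60.6% ± 10.6 of those of a diploid cell were at least 90% in 1 state (SD, n = 25 and 45).

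**Figure D4:**
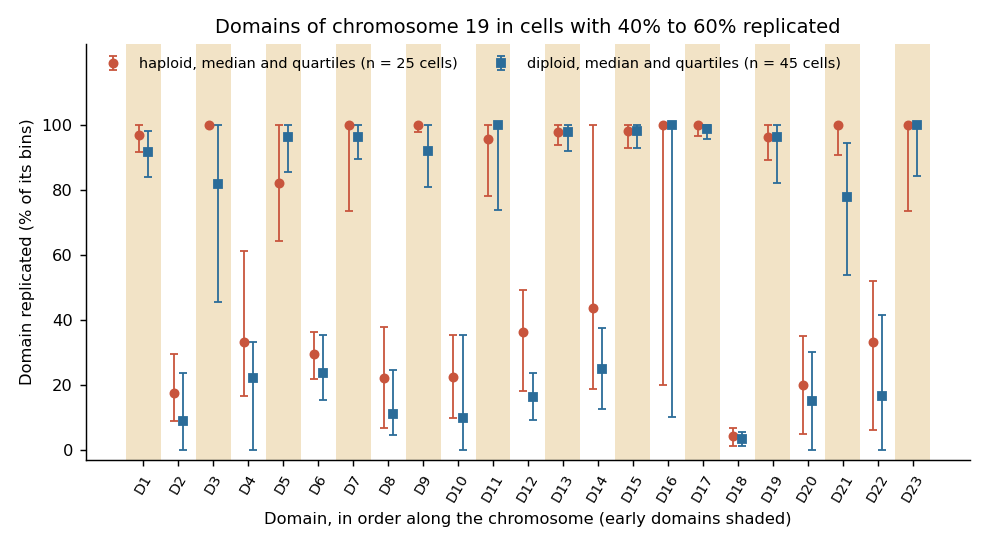
Points give the median and bars the quartiles of the percentage of a domain's bins replicated, over 25 haploid (circles) and 45 diploid (squares) mid-S-phase cells, for domains D1 to D23 in order along the chromosome, with early domains shaded. D18 is lowest in both lines, D16 spans most of the range, and the diploid median of D21 (77.8%) lies below the haploid one (100%).

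The order of domains was rarely broken in a cell. For each of the 132 pairs of an early and a late domain, a reversal was counted when under 50% of the early and over 50% of the late one was replicated. Domains were classed as early or late from the average of all cells, these included, so a low count is in part built in. Reversals made up 0.606% of pairs in haploid and 0.943% in diploid mid-S-phase cells. In 19 of 25 haploid and 30 of 45 diploid cells there was none, and the highest share in a cell was 4.55% and 9.09%. In haploid cells 11.5 ± 0.963 of the 12 early and 2.36 ± 1.58 of the 11 late domains were mostly replicated, and in diploid cells 11.2 ± 0.952 and 1.78 ± 1.49.

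The progress of the other autosomes at which 50% of a domain was replicated was read from a logistic curve over the cells of each line. It could be given within the range of the cells for 20 domains in haploid and 22 in diploid cells. Early domains had a median of 30.9% in haploid and 34.2% in diploid cells, and late domains 63.1% and 62.9%. Over both lines together the early domain reaching 50% last was D5, at 42%, and the late domain reaching it first was D16, at 49.3%. The latest was D18, at 84.5%. The values of the lines correlated at r = 0.92 (rho = 0.89) over the 19 domains with both. Haploid cells reached 50% at lower progress in 12 of these 19, by 3.18 percentage points on average with an SD of 6.88 over domains.

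For genes, the value is the percentage of mid-S-phase cells with the bin of the gene start replicated, the homologs of a diploid cell averaged. Of the 18 replication, repair and chromosome genes, 17 started in bins scheduled within 5 h, beside 80.5% of the 699 protein-coding genes of the chromosome with a used bin and 80.2% on the other autosomes. Ddb1, the damage-specific DNA-binding subunit, was earliest, at 0.0416 h and replicated in 100% of the haploid and 98.9% of the diploid cells. Fen1, the flap endonuclease of Okazaki fragment processing, followed at 0.397 h, also with 100% and 98.9%. The late member was Kif20b, at 5.12 h, with 76% of haploid and 36.7% of diploid cells.

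Of the 23 developmental regulators 17 were early, or 73.9% beside the 80.5% of all protein-coding genes of the chromosome. Lbx1, Pax2 and Tlx1, homeobox and paired-box genes of D17, were scheduled at 0.599, 0.634 and 0.70 h and replicated in 100% of haploid cells and in 97.8% to 100% of diploid cells. Emx2, a homeobox gene of the cortex, was latest at 6.57 h, with 16% of haploid and 26.7% of diploid cells. Rorb, an orphan nuclear receptor, followed at 6.42 h with 44% and 17.8%. The doublesex-related genes Dmrt1, Dmrt3 and Dmrt2 lie side by side across the border of D7 and D8, and were scheduled at 4.68, 5.18 and 5.57 h. They were replicated in 64%, 64% and 60% of haploid and in 84.4%, 73.3% and 55.6% of diploid cells.

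Of the 20 genes of signalling and metabolism 19 had a used bin and 16 of these were early. That is 84.2%, beside the 80.5% of all protein-coding genes of the chromosome. Myrf and Fads2, a myelin transcription factor and a fatty acid desaturase, were earliest at 0.397 and 0.467 h, and the iron storage gene Fth1 stood at 0.627 h. All 3 were replicated in 100% of haploid and in 98.9% to 100% of diploid cells. The lipoprotein receptor gene Vldlr, at 6.79 h, and the death receptor gene Fas, at 6.76 h, were latest, with 20% and 16% of haploid and 16.7% and 8.89% of diploid cells. The nuclear RNAs Malat1 and Neat1 share 1 bin at 2.17 h, replicated in 100% of the haploid and 95.6% of the diploid cells.

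Of the 10 genes listed as long, 4 started in early bins, or 40% beside the 80.5% of all protein-coding genes of the chromosome. Their median was 5.93 h, beside 2.21 h. Sorcs1, 535 kb, started at 8.75 h, and the start was replicated in 0 of 25 haploid cells and in 2.22% of diploid cells. Smarca2, a chromatin remodeling ATPase, started at 8.44 h with 4% and 6.67%. Prkg1, a cGMP-dependent kinase gene of 1201 kb, was late over its whole body, with bins between 5.98 and 6.98 h. Trpm3, a cation channel gene of 856 kb, held bins between 3.25 and 6.67 h, and the share of haploid cells with a bin replicated ranged from 28% to 96% along it. Glis3 and Plce1, of 421 and 304 kb, were early throughout, with all bins at 3.46 h or before.

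The gene families differed. Of the 66 olfactory receptor genes 21 were early, or 31.8% beside the 80.5% of all protein-coding genes of the chromosome. Their median was 6.90 h, with those in D1 between 4.8 and 5.03 h and those in D2 between 6.07 and 8.79 h. The latest, Olfr1467, had its bin replicated in 4% of the haploid and 1.11% of the diploid cells. The 6 Slc22a transporter genes with a used bin were all early, the 13 Cyp2c cytochrome genes early in 3 cases, and the 4 Ifit interferon-induced genes with a used bin shared 1 late bin. The Ms4a genes ran along a slope in D1, from Ms4a10 at 0.940 h, replicated in 100% of cells of both lines, to Ms4a2 at 5.31 h, replicated in 88% of the haploid and 55.6% of the diploid cells. Neighboring family members share bins and are not independent values.

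Replication of the chromosome spread over a limited time around the schedule. T_width, the time from 25% to 75% replicated on a sigmoid fitted to all bins and cells, was 1.85 h, beside 1.86 h for chromosome 11 and up to 2.15 h for the other autosomes. It was the lowest value by a margin far smaller than the SD of 0.0740 h over the other 18. In cells of each line alone it was also 1.85 h, the second lowest in haploid and the third lowest in diploid cells. Early bins of the chromosome had a T_width of 2.41 h and late bins of 1.68 h. The early value lay near the median of the other autosomes (2.40 h) and the late value was the second lowest (1.67 to 2.05 h). Over the 19 autosomes T_width and mean scheduled time correlated at r = 0.89 (rho = 0.84).

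Few bins were far off schedule. Of bins that were due more than 1.5 h later, 6.94% were already replicated on chromosome 19 in haploid cells and 4.23% in diploid cells, against 5.55% and 5.37% on the other autosomes. Of bins overdue by more than 1.5 h, 2.09% were unreplicated in haploid and 6.51% in diploid cells, against 3.95% and 5.34%. Beside the other autosomes, haploid cells were thus shifted to early and diploid cells to late replication on both counts. The schedule averages cells of both lines, so opposite shifts of the lines are in part built in. Over all cells 5.56% of bins were replicated ahead and 3.94% unreplicated behind by these limits, against 5.46% and 4.53% on the other autosomes.

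Pairs of cells within 1 percentage point of progress were compared bin by bin. On chromosome 19 they differed at 42% ± 6.52 of bins within 1 h of the scheduled time and at 3.66% ± 3.43 of bins more than 3 h from it (SD over 134 cells, 404 pairs). The difference of 38.4 percentage points was positive in 134 of 134 cells. The schedule is an average of these same cells, so a positive difference is in part built in. The other autosomes gave 42.7% ± 2.68 and 3.87% ± 2.30. The differences between these means were smaller than the spread over cells. The 404 pairs include pairs of a haploid with a diploid cell. Within the haploid line (94 pairs) the shares on chromosome 19 were 40.1% within 1 h and 2.32% beyond 3 h. Within the diploid line (159 pairs) they were 41.1% and 4.85%.

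Borders of domains coincided with copy number shifts of single cells. A mid-S-phase cell had 25.8 ± 4.03 shifts on chromosome 19 (SD, n = 70), or 4.65 per 10 Mb, against 4.24 on the other autosomes. Of the 22 borders, 61.5% ± 14.4 had a shift of the cell within 250 kb, with a range of 27.3% to 95.5% over cells. Only 24.1% ± 3.44 of the positions on the chromosome lay that close to a shift. The excess of 37.4 percentage points ± 12.7 was positive in 70 of 70 cells, and the other autosomes gave 37.4 ± 8.62. The borders come from the average of all cells, these included, so an excess is in part built in. With the schedule taken from the other line alone it was 34.9 percentage points.

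Individual borders differed in how often they were seen. The right border of D18, near chr19:52800000, had a shift within 250 kb in 23 of 25 haploid and 39 of 45 diploid cells, and its left border in 20 of 25 and 37 of 45. These were the borders used most, at 88.6% and 81.4% of all 70 cells. The borders of D16 were used least, at 35.7% and 41.4%, followed by the border of D1 and D2 at 44.3%. In all, 17 of 22 borders had a nearby shift in more than 50% of cells. The step of the schedule across 500 kb on each side ranged from 1.51 to 3.97 h, largest at the right border of D18, and correlated with the share of cells at r = 0.44 (rho = 0.42) over the 22 borders. The order of borders by use was similar in the lines (r = 0.61, rho = 0.58). Schedules built from 1 line alone gave 22 borders in haploid and 20 in diploid cells. Of these, 16 of 22 and 16 of 20 had one of the other line within 250 kb.

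Homologs were called different less often on chromosome 19 than on any other autosome. Both homologs carry a shared state unless the parsed reads of a segment were enough and clearly unequal, and the part of SNP density in the difference between chromosomes was not tested. In diploid cells 0.363% ± 1.01 of its bins were replicated on 1 homolog only (SD, n = 63), against 0.460% to 1.20% on the other autosomes and 0.882% ± 1.61 on all of them together. Any such bin occurred in 12 of 63 cells, the fewest of all autosomes (14 to 33). In 33 cells homologs differed elsewhere and nowhere on chromosome 19, and 18 cells had no asynchronous bin on any autosome. These counts of cells depend on length too, and chromosome 19 has the fewest bins, 1110 against 1692 or more. The part of length was not tested. Over the cells, 189 of 1110 bins (17%) were asynchronous in at least 1 cell, beside 40.4% of all autosomal bins, and no bin in more than 2. The spread over cells was larger than the difference between chromosomes. Chromosome 19 also stayed lowest among 45 mid-S-phase cells, at 0.434%, and without the 3 cells with most asynchronous bins, at 0.228%.

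**Figure D5:**
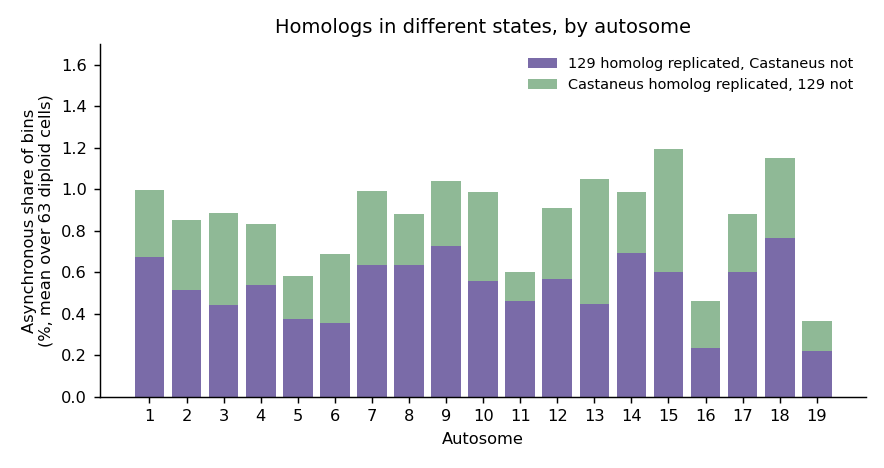
Bars give the percentage of an autosome's bins whose homologs were in different states, as the mean over 63 diploid cells, stacked by which homolog was replicated. Chromosome 19, at 0.363%, has the lowest bar, followed by chromosome 16 at 0.460%.

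The asynchronous bins formed 20 segments of 250 to 1700 kb, with a median of 475 kb. The 129 homolog was the replicated one in 15 segments and 154 bins, and the Castaneus homolog in 5 segments and 100 bins. The diploid cell H4 held 5 segments, all of the 129 side, with 68 bins or 6.13% of the chromosome. Without it, 86 bins remained on the 129 and 100 on the Castaneus side, and the share fell to 0.270%. Of the 20 segments, 7 lay within 1 h and 11 within 2 h of the time of the cell. The farthest was a segment of the cell H3 at chr19:10250001-10750000 with Ddb1, overdue on the Castaneus homolog by 5.71 h.

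Several places recurred in a pair of cells. In F11 the Castaneus homolog alone was replicated over chr19:32550001-34800000, and in F6 over chr19:33150001-34500000, across the border of D11 and D12 and at the start of D12, with Fas and Rnls. In G4 and H3 the 129 homolog alone was replicated at chr19:10250001-10450000 in D1, among the earliest bins of the chromosome, next to Fen1, Myrf and Ddb1. In H4 and H7 the 129 homolog alone was replicated within the olfactory receptor array of D2. In G4 and H4 the 129 homolog alone was replicated in D9, over chr19:28350001-28800000 and chr19:28100001-28550000. In other pairs the sides were opposite. The F11 segment overlapped segments with the 129 homolog alone replicated, in H10 (chr19:32200001-33000000) and E12 (chr19:34600001-35300000). Near the border of D5 and D6 the Castaneus homolog alone was replicated in G10 (chr19:17050001-17500000) and the 129 homolog alone in G7 (chr19:17250001-17500000). The sides were opposite at Tcf7l2 too. The Castaneus homolog alone was replicated over chr19:55200001-56350000 in E7, and the 129 homolog alone over chr19:54900001-55900000 in H4.

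The lines differed along the chromosome mostly with 1 sign. Smoothed scores, which have no fixed unit and are higher in replicated bins, were compared within intervals of progress. The score of a chromosome 19 bin was higher in haploid cells by a median of 0.17, with a range of -0.29 to 0.76, and 86.3% of bins lay above 0, against a median of 0.02 and 55% of all autosomal bins. The median was the second highest of 19 autosomes. A difference of at least 0.5 was seen at 27 bins with higher scores in haploid cells, 2.43% of the 1110 beside 0.428% of all autosomal bins, and at 0 bins with higher scores in diploid cells, beside 0.904%. At a limit of 0.3 there were 197 bins higher in haploid cells, beside 6.06% of all autosomal bins, and 0 higher in diploid cells, beside 5.27%. When each chromosome of a cell was centered on its own median the counts at 0.5 were 1 higher in haploid cells, 0.0901% of bins beside 0.124% of all autosomal bins, and 2 higher in diploid cells, 0.180% beside 0.858%.

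The largest of these places was chr19:55550001-56750000 in D21, with 22 of the 27 bins and the genes Tcf7l2, Dclre1a, a DNA crosslink repair nuclease, and Adrb1, a beta-adrenergic receptor. In mid-S-phase haploid cells a median of 100% of it was replicated (37.5% to 100%), and in diploid cells a median of 70.8% (0% to 100%). It was mostly replicated in 24 of 25 haploid cells and 27 of 45 diploid cells, and the ranges overlapped. The score at matched progress differed by 0.60, and by 0.35 with centered chromosomes. In mid-S-phase it was 0.71 ± 0.29 in the haploid and -0.00 ± 0.44 in the diploid cells. Progress at 50% replication was 30.6% and 48.6%. The scheduled time of the region was 0.714 h from haploid and 4.57 h from diploid cells alone. The start of Tcf7l2 was replicated in 96.0% of the haploid and 63.3% of the diploid cells. Ablim1 and Atrnl1, farther along the same domain, were replicated in 84% and 80% of haploid and in 91.1% and 84.4% of diploid cells, so the difference did not run through the whole of D21.

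The other called bins lay in D1, at chr19:7700001-7900000 and chr19:8500001-8600000, where Slc22a19 and Slc22a8 encode organic anion transporters. The former stretch was mostly replicated in 24 of 25 haploid cells and 31 of 45 diploid cells.

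By share of cells replicated, the widest gap lay elsewhere. Over chr19:34500001-35350000 in D12, with Lipa, a lysosomal lipase, Kif20b, the kinase gene Pank1 and the carrier gene Slc16a12, the share was higher in haploid cells by 42.6 percentage points at matched progress. It was mostly replicated in 18 of 25 haploid cells and 10 of 45 diploid mid-S-phase cells, with medians of 81.3% and 0% and ranges of 0% to 100% and 0% to 93.8%. Progress at 50% replication was 42% in haploid and 60.4% in diploid cells. Its scheduled time was 4.96 h from haploid and 6.35 h from diploid cells alone. In the diploid cell E12 the 129 homolog alone was replicated over chr19:34600001-35300000, which holds Kif20b. In the diploid cell F11 the Castaneus homolog alone was replicated over chr19:32550001-34800000, which overlaps the start of the region. A gap of at least 30 percentage points was seen at 27 bins in this direction (2.43%, beside 1.42% of all autosomal bins) and at 1 bin in the other (beside 1.91%). In the other direction D5, with the G protein gene Gnaq and the forkhead gene Foxb2, was replicated to 75.1% ± 29.1 in haploid and 88.6% ± 22.5 in diploid mid-S-phase cells, a difference of -8.98 percentage points at matched progress.

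Some whole domains differed as well. At matched progress the replicated share was higher in haploid cells by 25.8 percentage points in D4, 20.9 in D3 and 20.2 in D14, the widest gaps of all domains. It differed by less than 1 point in D7, D8, D11 and D16. In D5, D10, D23, D20 and D18 it was lower in haploid cells (-8.98, -3.49, -2.87, -1.71 and -1.36). The lead of the whole chromosome was larger in haploid cells by 4.59 percentage points. The mean smoothed profiles of the lines correlated at r = 0.96 (rho = 0.95) over the 1110 bins, within the 0.95 to 0.97 of the other autosomes, and 91.2% of bins lay on the same side of 5 h in the schedules of both lines, against 92.4% elsewhere.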

How the data were processed

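Single S-phase cells of the haploid and diploid mESC lines were described by 2 deposited tables, both made by the authors from reads mapped to mm10 with Bowtie2 and counted in 50 kb windows. The submitters' processing notes also name SAMtools and bedtools. The deposited smoothed values are a score: coverage was divided by that of G1 and G2 control cells, centered, brought to the same interquartile range in every cell and smoothed by a running median. According to the paper, cells with complex karyotype aberrations or a lost chromosome were discarded, and aneuploid chromosomes were rescaled to the controls. The paper also removed outlier cells, whose binarized states correlated with those of no other cell. The variation between cells given here is therefore that of cells kept after this step. The deposited binarized states (0 or 1) came from segmenting the smoothed profile. Homologs received different states only where parsed reads showed it clearly, so most segments carry the same state on both by default. Reads per cell are not in these values. Depth is therefore unknown here, and errors are SDs over cells.

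The labels name 188 cells, and values were matched by plate well to 75 haploid and 63 diploid cells. Another 24 columns (16 binarized and 8 smoothed) belonged to 8 diploid cells that no label names and were set aside. No cells were alike enough to be 1 cell deposited again: the closest pair differed at 7.32% of bins.

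Bins needed a state in every cell and a score in 50% or more of cells in both lines. For expected shares and T_width the cell itself was left out of its own schedule. Scheduled times of bins, domains, borders and genes used all cells. Expected shares used the pooled kinetics of the other autosomes in intervals of 0.1 h. The sigmoid for T_width started from K = 100, B = 0.7 and M = 0. Domains broke at gaps over 1 Mb, and runs under 10 bins were merged with their neighbors. Lines were compared within strata of 5 percentage points of progress, weighted by cell numbers. Called regions held at least 2 bins. The functions for T_width, the schedule and domains were tested on simulated data. Genes came from GENCODE vM21 and promoters from RefSeq, with 60 of 73 listed genes matched to a promoter. Named genes were the 2 to 4 earliest and latest of each list, and in a domain up to 5 listed genes or otherwise its longest. Genes named outside that rule were chosen after their values were seen. The members and lists were chosen with earlier results of these data known. Analyses used Python 3.11.15 with numpy 2.4.6, pandas 2.3.3 and scipy 1.17.1.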

Additional observations from a re-analysis of the deposited data

How the results depend on the processing

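The leads of the chromosome, the spread around the schedule, the pair values, the asynchronous share, the domain count and the domain medians moved by less than the spread over cells or domains, or by less than 1.5 times, under every alternative run. Using the schedule of the other line moved the mean distance of diploid cells from schedule to -5.33, and T_width to 2.03 h. A linear schedule gave a T_width of 2.16 h, and with either change chromosome 19 stayed lowest of 19, while with a binarized schedule it was the fourth lowest. The border excess fell from 37.4 to 24.7 percentage points at 100 kb and to 24.9 with cells of all progress. Bins higher in haploid cells numbered 47 in mid-S-phase cells (4.23%, beside 0.838% of all autosomal bins), 1 with centered chromosomes (0.0901% beside 0.124%) and 197 at a limit of 0.3 (17.7% beside 6.06%), and those higher in diploid cells 1 by share of cells (0.0901% beside 1.91%) and 2 with centered chromosomes (0.180% beside 0.858%). The causes were not tested. Leaving out the diploid cell H4 or the 3 cells with most asynchronous bins was chosen after seeing the data. No paired analysis was possible because a plate well is only a name and links no haploid to a diploid cell. Depth per cell is unknown, so counting error could not be separated from variation between cells.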
